A study of Danio rerio with 9 samples.

Results

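A set of 48 zebrafish transcripts was chosen for high levels in sorted Schwann cells and sorted neurons and low levels in cells of the oligodendrocyte lineage. A transcript belonged to the set when it reached at least 20 CPM (the estimated count scaled to a common library total, by the sum of its file) in all 3 Schwann cell and all 3 neuron libraries and stayed under 10 CPM in all 3 libraries of the oligodendrocyte lineage. Of 52216 transcript IDs, 48 met these limits, fewer than the 100 at which the list would have ended. Members were ordered by the log2 of the lowest of the 6 high libraries minus the log2 of the highest oligodendrocyte lineage library, each after adding 1 CPM. The members were thus chosen by their levels in all 9 libraries, and the contrast with the oligodendrocyte lineage is a description and not a finding.

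All cells came from trunk pieces of AB* zebrafish embryos at 72 hours post fertilization, from which the anterior part had been cut away, and each sample held 1750 ± 750 sorted cells. Schwann cells were positive for both reporters of a line with the gene trap Gt(foxd3:mCherry) and the transgene Tg(sox10:mEGFP). Oligodendrocyte lineage cells, called OPC in the sample titles, were positive for Tg(olig2:dsred) and for Tg(sox10:megfp). Neurons were positive for the single reporter of Tg(nbt:dsred) embryos, and the labels name no drug or other agent for any group. Each population thus came from its own transgenic line, and differences between the lines or their sorts cannot be told apart from differences between cell types.

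Schwann cells are the glia of peripheral nerves and arise from the neural crest, the embryonic cell population in which the transcription factors Foxd3 and Sox10 act. Cells of the oligodendrocyte lineage myelinate axons in the brain and spinal cord, and they use Olig2 together with Sox10. The nbt promoter, from a neural beta tubulin gene, is active in neurons of both the central and the peripheral nervous system. Gene names and functions of the 48 members are not given here, because the files list only transcript IDs and the gene tables used here matched 0 of them. For the same reason the populations were not checked against their marker genes.

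Library totals ranged from 7123251 estimated counts in Schwann cells replicate 2 to 17126213 in neurons replicate 1. Whether replicates were separate clutches or separate sorts is not stated in the labels. The p-values below measure the spread between these samples, and it may be technical. Schwann cells replicate 3 had a higher median than replicates 1 and 2 over transcripts high in neurons and low in the oligodendrocyte lineage. Over the 480 transcripts at 20 CPM or more in every neuron library and under 10 CPM in every oligodendrocyte lineage library, the median was 3.99 CPM in that library against 0.118 and 0.140 CPM in replicates 1 and 2. The medians in replicates 1 and 2 correspond to 1 count each, and whether the gap was particular to these transcripts was not tested. Abundant transcripts were also low in single libraries. Of transcripts at 20 CPM or more in both other libraries of their group, 27.7% were under 10 CPM in Schwann cells replicate 1, 35.9% in replicate 2 and 7.86% in replicate 3. That share was 9.34%, 8.46% and 27.7% in oligodendrocyte lineage replicates 1, 2 and 3, and 3.87% to 9.88% in neurons.

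Low levels in the oligodendrocyte lineage were uncommon among transcripts that Schwann cells and neurons shared. At 20 CPM or more in all 6 Schwann cell and neuron libraries stood 1805 transcripts, called the shared transcripts from here on. Of these, 1316, or 72.9%, also reached 20 CPM in all 3 oligodendrocyte lineage libraries, 441 lay between the limits or differed among those libraries, and 48, or 2.66%, were members. With the same limits applied to the other populations, 9 of the 1606 transcripts shared by both glial groups were under 10 CPM in all neuron libraries, which is 0.560%. Of the 2604 transcripts shared by the oligodendrocyte lineage and neurons, 109, or 4.19%, were under 10 CPM in all Schwann cell libraries.

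The members were a small part of what neurons expressed without the oligodendrocyte lineage and a larger part of what Schwann cells did. Of the 480 transcripts high in neurons and low in the oligodendrocyte lineage, 10% were members, while 219, or 45.6%, were under 10 CPM in all Schwann cell libraries. Of the 162 transcripts high in Schwann cells and low in the oligodendrocyte lineage, 29.6% were members and 33, or 20.4%, were under 10 CPM in all neuron libraries. Whatever their level in the oligodendrocyte lineage, 5331 transcripts were high in neurons and 2647 in Schwann cells, with 1805 in both. The order of the shares is therefore not particular to the members.

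**Figure D1:**
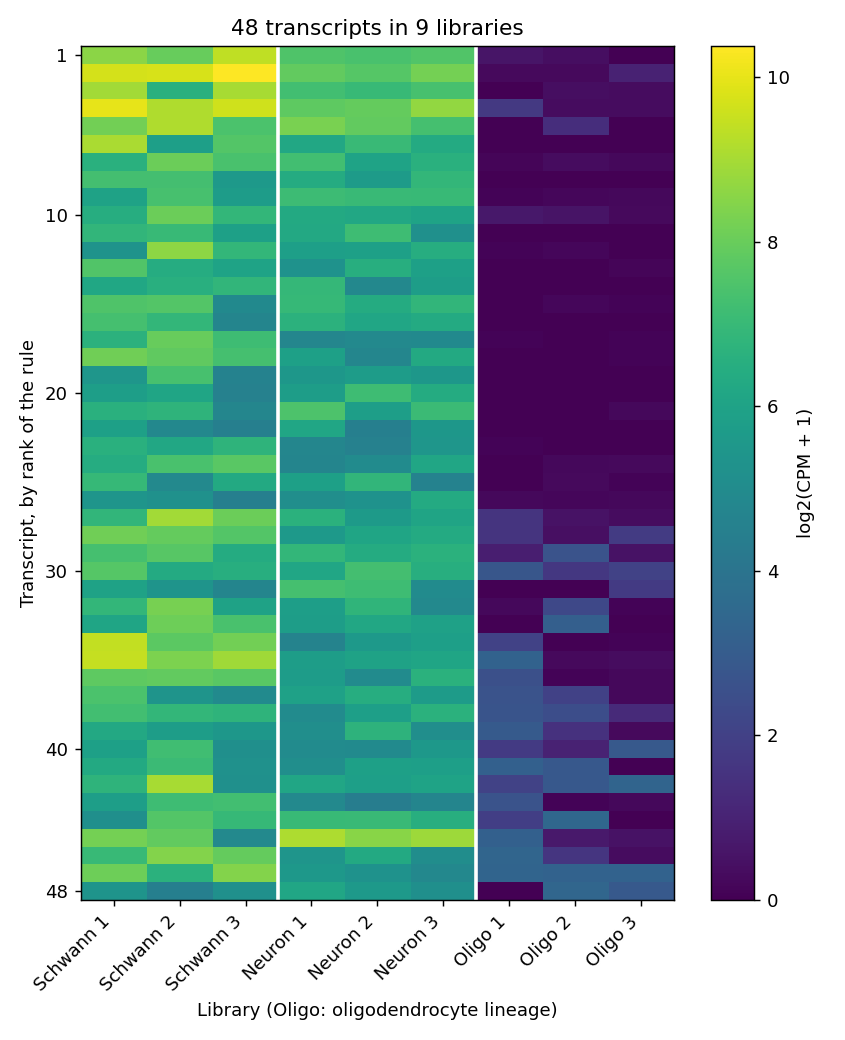
Level of each of the 48 transcripts (rows, by rank of the rule) in each of the 9 libraries (columns), as log2(CPM + 1) on the colour scale. The 6 Schwann cell and neuron columns are at 20 CPM or more in every row, and the 3 oligodendrocyte lineage columns are under 1 CPM throughout in 23 rows.

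Summed over members, 0.837% to 0.986% of each Schwann cell library and 0.432% to 0.456% of each neuron library came from these 48 transcripts. For the oligodendrocyte lineage the sums were 97.4, 78.1 and 45.5 CPM in replicates 1, 2 and 3, against 9739, 9863 and 8374 CPM in the Schwann cell replicates. The lowest of the 6 high libraries was at least 40 CPM for 16 members. The member nearest to the lower limit had 20.3 CPM in its lowest library, and the nearest transcript outside it had 19.5 CPM with at most 8.23 CPM in the oligodendrocyte lineage. At the upper limit, the nearest member reached 9.93 CPM in an oligodendrocyte lineage library, and the nearest transcript outside reached 10.6 CPM with at least 24.9 CPM in the 6 high libraries.

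By rank, by level and by the comparison of Schwann cells with neurons, 5 members were named. ENSDART00000167324.1, a transcript of 4941 bases, had the highest rank. Its levels were 376, 253 and 667 CPM for Schwann cells, 182, 166 and 188 CPM for neurons, and 0.518, 0.291 and 0 CPM for the oligodendrocyte lineage. Each Schwann cell library lay above each neuron library, and the 3 oligodendrocyte lineage libraries together held 12.0 estimated counts of it. The mean level was 432 ± 213 CPM for Schwann cells and 178 ± 11.4 CPM for neurons (SD, n = 3 each).

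ENSDART00000010896.5, of 2303 bases, ranked next and had the highest mean CPM of the members over the 6 high libraries. It stood at 833, 864 and 1332 CPM in the Schwann cell libraries, 235, 197 and 298 CPM in neurons, and 0.206, 0.197 and 1.01 CPM in the oligodendrocyte lineage. Each Schwann cell library lay above each neuron library, while the gap to the oligodendrocyte lineage was set by the rule. Its estimated counts were whole numbers in every library, so that they show no division of reads with another ID, and it had 18.0 counts in the whole oligodendrocyte lineage group.

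ENSDART00000173416.1, of 5734 bases, had the next highest mean CPM, with 1023, 563 and 797 CPM in Schwann cells against 225, 243 and 417 CPM in neurons. In the oligodendrocyte lineage it had 2.26, 0.262 and 0.253 CPM. Schwann cell and neuron libraries again did not overlap.

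**Figure D2:**
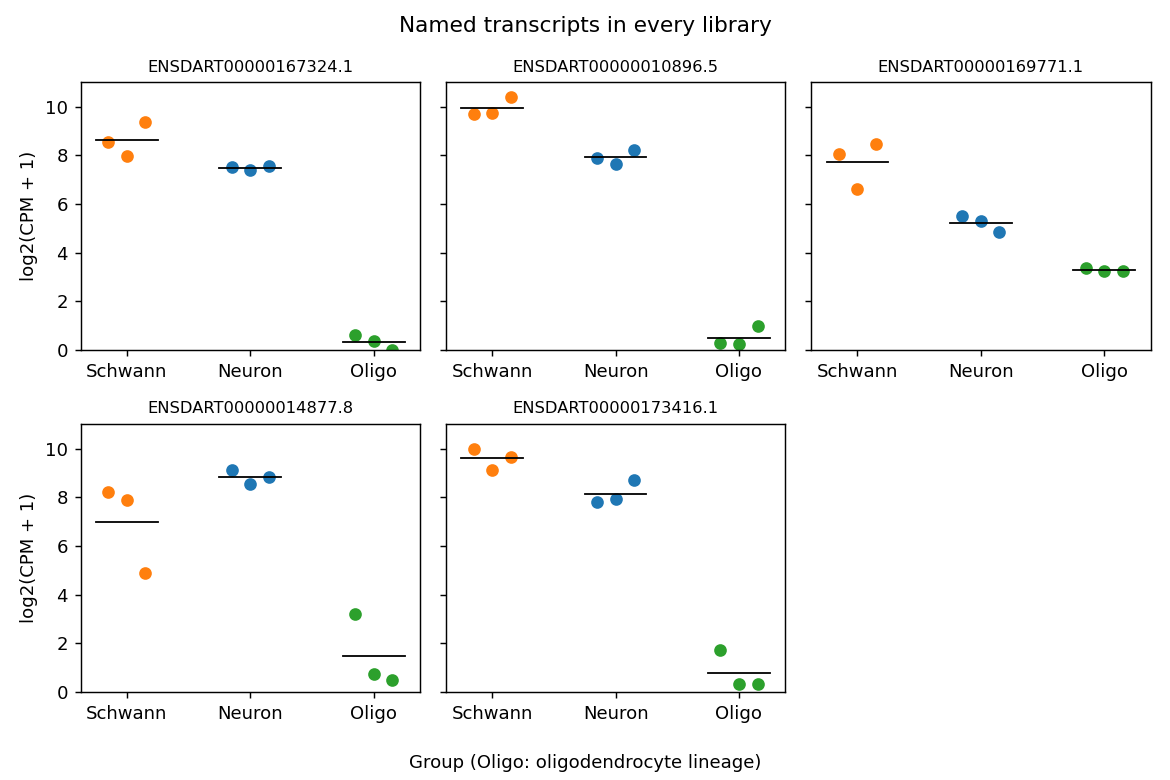
Levels of the 5 transcripts named by rule in every library, as log2(CPM + 1), with a point per library and a line at the mean of the 3 points. ENSDART00000014877.8 has all its neuron libraries above its Schwann cell libraries, and the other 4 have the opposite order.

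Levels in the oligodendrocyte lineage ranged from 0 to just under the limit of the rule. In sorted pools such as these, fewer expressing cells and less RNA per cell cannot be told apart. For 23 members all 3 oligodendrocyte lineage libraries were under 1 CPM, and for 25 members at least 1 library was between 1 and 10 CPM. No counts at all were found for 7 members. A count of 0 over the group allows up to 3 counts, or 0.0719 CPM, by counting error alone. The estimated counts of all 7 were fractional in other libraries, so a value of 0 also depends on how shared reads were divided. For 4 of the 7 the IDs that share their reads were found, as described with the read-sharing sets, and with these added the mean oligodendrocyte lineage level was 0.0894, 0.926, 2.93 and 13.4 CPM. Of the other members, 8 had an estimated count above 0 in 1 oligodendrocyte lineage library, 10 in 2 and 23 in all 3. Values far under 1 read were included. A member among the 8 held only 1.05e-04 estimated counts, and a member among the 23 had 1.78e-07 in replicate 1.

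Traces in the oligodendrocyte lineage often came from a single library. Among the 25 members that reached 1 CPM there, 13 did so in 1 library, 8 in 2 and 4 in all 3, and for 9 the highest library was more than 10 times both others. Replicate 1 was the highest for 14 of the 25, replicate 2 for 6 and replicate 3 for 5. Without oligodendrocyte lineage replicate 1, 112 transcripts met the limits, so 64 further transcripts were kept out by that library alone. The corresponding numbers were 72 transcripts without replicate 2 and 66 without replicate 3. Without Schwann cells replicate 2 it was 74, and without replicate 1 it was 72. Dropping Schwann cells replicate 3 gave 59, and dropping a neuron library gave 54, 55 or 60 for replicates 1, 2 and 3. Leaving out a library only removes a condition, so all 48 members are in each of these lists by construction.

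In edgeR's quasi-likelihood test over 23408 transcripts, with Benjamini-Hochberg adjusted p under 0.05 as the call, 27 of the 48 members were called higher in Schwann cells than in the oligodendrocyte lineage, where 0.226% of all tested transcripts were called in that direction. In neurons against the oligodendrocyte lineage 4 members were called, where 0.0513% of all tested transcripts were. With DESeq2, 46 and 43 members were called in these contrasts, where 5.48% and 6.78% of all tested transcripts were, and with limma on log2(TPM + 1) 41 and 40, where 1.27% and 4.37% were. The rule used both contrasts, so nothing is read from these counts. For Schwann cells, 10 members were called with replicate 1 of that group left out, where 17 of 27138 tested transcripts were called higher. Leaving out oligodendrocyte lineage replicate 1, 2 or 3 gave 14, 0 and 3 members. There 49, 0 and 9 of 26311, 26443 and 26972 tested transcripts were called higher. Leaving out neuron replicate 1, 2 or 3 gave 1 member each, where 4, 3 and 4 of 25689, 26518 and 26169 tested transcripts were. For neurons, 9 members were called with Schwann cells replicate 2 left out, where 37 of 27114 tested transcripts were called higher. Without oligodendrocyte lineage replicate 2 or 3 it was 0 and 2 members, where 1 and 6 of 26443 and 26972 tested transcripts were. Without any of the neuron libraries it was 0 members, where 0 of all tested transcripts were called higher. In the fits that called 0 members, 45 had an unadjusted edgeR p under 0.05 for Schwann cells, against 6.35% of all tested transcripts. For neurons it was 42 to 44 members, against 8.67%. These percentages are of transcripts higher at that p in the fit of all 9 libraries, not in the fits with a library left out. The rule used both contrasts, so nothing is read from these unadjusted counts either.

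The rule set the same limits for Schwann cells and neurons, so it did not ask for either to be higher. A floor in every library still asks for a higher mean in a group whose libraries vary more. As given above, abundant transcripts were more often low in Schwann cells replicates 1 and 2 than in any neuron library. How far the rule shaped the direction was not tested, so the direction is a description. Most members had a higher mean in Schwann cells, and so did most of the shared transcripts. The mean CPM was higher in Schwann cells for 40 members and in neurons for 8, with a median ratio of 1.90, and the mean was higher in Schwann cells for 76.4% of the 1805 shared transcripts, with a median ratio of 1.55. For 17 members, or 35.4%, the lowest Schwann cell library was above the highest neuron library, against 30.8% of the shared transcripts and 7.39% of all tested transcripts. The reverse held for 1 member, or 2.08%, against 6.37% of the shared transcripts and 17.4% of all tested transcripts. Libraries of both groups overlapped for the other 30 members. The shared transcripts also had to reach 20 CPM in all 6 libraries, and the difference between members and shared transcripts was not tested.

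None of the 48 members passed edgeR's test between Schwann cells and neurons. EdgeR called 0 members at an adjusted p under 0.05, where it called 0.0555% of all tested transcripts as higher in Schwann cells and 0.299% as higher in neurons. An unadjusted p under 0.05 was reached by 2 members, both higher in Schwann cells, where 2.70% of all tested transcripts did so in that direction and 13.3% in the other. DESeq2 called 2 members and limma called 1, all higher in Schwann cells. That is 4.17% and 2.08% of the members, where DESeq2 called 2.67% and limma 1.20% of all tested transcripts in that direction. Of the 1805 shared transcripts, DESeq2 called 107, limma 93 and edgeR 10 as higher in Schwann cells. EdgeR gave 161 of them an unadjusted p under 0.05 in that direction. Each of these shares was larger than that among the 48 members, and the difference was not tested. Without Schwann cells replicate 3, edgeR called 0 members and gave 1 an unadjusted p under 0.05, against 151 of the shared transcripts higher in Schwann cells. The median fitted log2 fold change of the members was 0.74, with a range from -1.54 to 3.02. It was 0.43 over the shared transcripts and -0.31 over all tested transcripts. With DESeq2 size factors in edgeR these medians were 1.01, 0.71 and -0.11. Without Schwann cells replicate 2, the median was 0.34 for the members and 0.38 for the shared transcripts. All tested transcripts did not have to reach 20 CPM in Schwann cells, so nothing is read from how far their median lies below the others.

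ENSDART00000169771.1, of 1003 bases, had the lowest p of the members with Schwann cells above neurons. It was at 269, 98.5 and 349 CPM in the Schwann cell libraries, 44.9, 38.6 and 28.0 CPM in neurons, and 9.23, 8.49 and 8.55 CPM in the oligodendrocyte lineage. The Schwann cell mean was 6.42-fold the neuron mean, with an edgeR log2 fold change of 2.49 (SE 0.81, adjusted p = 0.174). DESeq2 gave an adjusted p of 0.00139 and limma one of 0.0415. Its 3 oligodendrocyte lineage libraries sat just inside the limit of the rule, and, as given with the read-sharing sets, other IDs that share its reads were present there.

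ENSDART00000010896.5 had the next lowest p, with a log2 fold change of 1.84 (SE 0.69, edgeR adjusted p = 0.232) and a mean 4.15-fold that of neurons. The corresponding values of ENSDART00000167324.1 and ENSDART00000173416.1 were 1.06 (SE 0.95, edgeR adjusted p = 0.770) and 1.23 (SE 0.85, edgeR adjusted p = 0.623). Separate libraries therefore did not bring any of these members past the threshold in edgeR.

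ENSDART00000014877.8, of 4326 bases, was the only member with all neuron libraries above all Schwann cell libraries. It was at 552, 375 and 457 CPM in neurons, 295, 235 and 28.7 CPM in Schwann cells, and 8.17, 0.655 and 0.420 CPM in the oligodendrocyte lineage. The low value in Schwann cells replicate 3 came with a high level of an ID that shares its reads, at 123 CPM there against 1.09 and 57.0 CPM in replicates 1 and 2. Summed over both IDs, levels were 296, 292 and 151 CPM in Schwann cells and 839, 794 and 711 CPM in neurons, again without overlap. The log2 fold change of Schwann cells against neurons was -1.49 (SE 1.19, edgeR adjusted p = 0.710).

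A further transcript is named after its values were seen, since DESeq2 called it and its counts were whole numbers in every library. ENSDART00000052122.4, of 921 bases, was at 100.0, 246 and 140.3 CPM in Schwann cells against 26.5, 28.3 and 29.3 CPM in neurons, with 2 counts in all in the oligodendrocyte lineage. Its Schwann cell and neuron libraries did not overlap, and their means differed 5.78-fold. The log2 fold change was 2.32 in edgeR (adjusted p = 0.318) and 2.61 in DESeq2 (adjusted p = 0.0201). Over all members, 4 had a Schwann cell mean more than 5-fold the neuron mean, up to 9.19-fold, and 23 had means within 2-fold of each other.

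**Figure D3:**
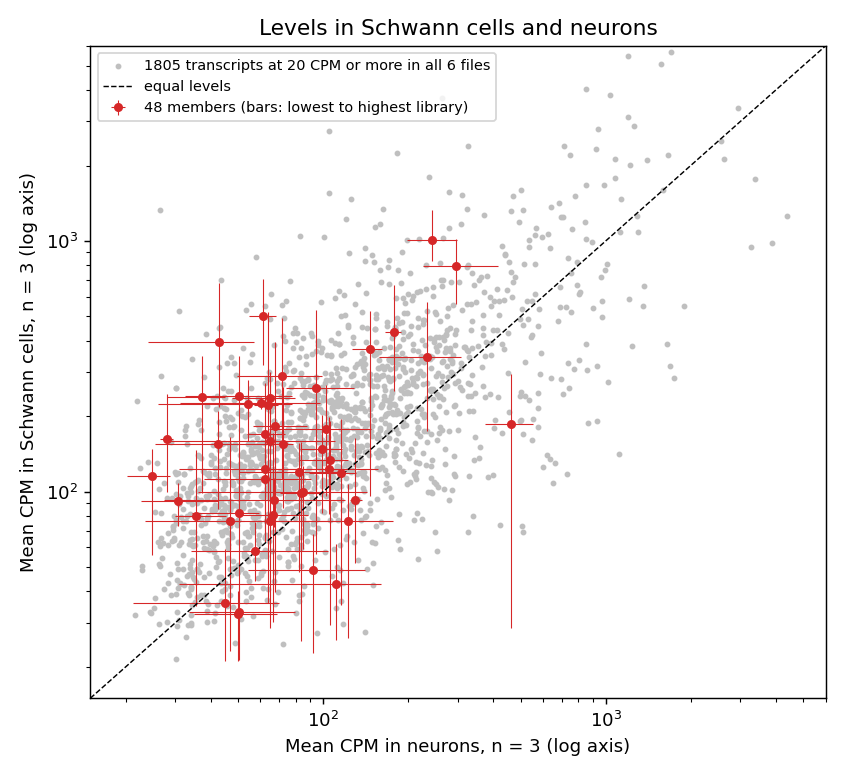
Mean CPM in Schwann cells against mean CPM in neurons on log axes, with the 48 members in red (bars from the lowest to the highest of 3 libraries) and the 1805 shared transcripts in grey. Of the members, 40 lie above the line of equal levels, as do 76.4% of the grey points, and 4 grey points lie beyond the axes.

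Members varied more between Schwann cell libraries than between neuron libraries. The median coefficient of variation was 0.534 in Schwann cells and 0.334 in neurons, against 0.436 and 0.270 for the shared transcripts. The highest Schwann cell library was more than 5 times the lowest for 10 members, or 20.8%, with a largest ratio of 14.4, and this held for 14.3% of the shared transcripts. In neurons it held for 1 member. Replicate 3 was the lowest Schwann cell library for 25 members, or 52.1%, against 35.7% of the shared transcripts, and replicate 2 was the highest for 21, or 43.75%, against 43.0%. No test was made of these shares.

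Levels between members can be compared only per length. In TPM (the estimated count over the effective length, scaled to a common library total), members ranged from 9.92 to 936 TPM in Schwann cells with a median of 89.6, and from 11.8 to 248 TPM in neurons with a median of 58.8. The shared transcripts had medians of 130 TPM in Schwann cells and 87.7 TPM in neurons. ENSDART00000010896.5 was the highest member in both groups, at 936 ± 277 and 248 ± 45.8 TPM (SD, n = 3 each). ENSDART00000169771.1 was next highest in Schwann cells, at 682 ± 380 TPM. At 266 ± 80.6 TPM there, ENSDART00000173416.1 had the higher CPM but is longer, and several other members lay between them in TPM. With the limits of 20 and 10 applied to TPM, 50 transcripts met the rule and 31 of them were members.

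Members were of ordinary length for abundant transcripts. Their median was 3078.5 bases (quartiles 2166.5 and 4331), from 884 to 8081 bases. The shared transcripts had a median of 2618 bases (quartiles 1789 and 4239), and the 38764 transcripts with any count had one of 1843 bases. Sharing of reads with other IDs was common. Estimated counts were whole numbers in every library for 6 members, or 12.5%, against 23.4% of the shared transcripts and 21.5% of those with any count.

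When a read matches several transcripts, such as isoforms of a gene or near-identical genes, an estimator divides it among their IDs. The parts then add up to whole numbers, which makes it possible to find the IDs that divided the same reads. Sets of 2 or 3 IDs whose estimated counts were fractional alone but whole in sum in all 9 libraries were found for 17 members. They formed 15 sets, 9 of 2 IDs and 6 of 3 IDs. A sum over a set holds the whole estimated count of each of its IDs. How much of that count came from divided reads is not known. For 23 members no set of up to 3 IDs was found, and 2 had fractions in too few libraries for the search.

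Members occurred together in 2 of the 15 sets. ENSDART00000173416.1 shared reads with a member of 4346 bases and with no other ID, and both together reached 887 CPM in Schwann cells against 362 CPM in neurons, with 0.926 CPM left for the oligodendrocyte lineage. In the other set, members of 3222 and 884 bases shared reads with an ID of 658 bases, and the sum was 215 CPM for Schwann cells, 62.4 CPM for neurons and 1.95 CPM for the oligodendrocyte lineage. The 48 IDs are therefore not 48 independent measurements.

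In 10 of the 15 sets, with 12 members, the sum still met the limits of the rule, with 0.131 to 8.51 CPM in the highest oligodendrocyte lineage library. ENSDART00000014877.8 was in such a set. Its partner of 6958 bases had 320 CPM in neurons and 60.3 CPM in Schwann cells, but 0.141 CPM in oligodendrocyte lineage cells, so that low levels in the oligodendrocyte lineage held for both IDs.

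In the other 5 sets, each with 1 member, reads of the set were present in the oligodendrocyte lineage under another ID. The highest oligodendrocyte lineage library of the sum was at 29.4 to 66.2 CPM. The clearest case, named after its values were seen, was ENSDART00000172204.1, a member of 1019 bases with 0.154, 0.129 and 0.174 CPM in the oligodendrocyte lineage, paired with ENSDART00000159215.1, of 993 bases. The partner was at 23.5, 42.1 and 66.0 CPM in oligodendrocyte lineage cells, 50.3, 45.2 and 43.9 CPM in Schwann cells, and 7.99, 8.56 and 9.88 CPM in neurons. Both IDs were present in Schwann cells, mainly the member in neurons and mainly the partner in the oligodendrocyte lineage. In sum the levels were 79.7 ± 13.4 CPM for Schwann cells, 59.0 ± 26.3 CPM for neurons and 44.0 ± 21.4 CPM for the oligodendrocyte lineage (SD, n = 3 each), and oligodendrocyte lineage libraries overlapped with those of the other groups.

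ENSDART00000169771.1 was in another of these 5 sets. Its partners, of 566 and 1183 bases, together held 32.6, 0.421 and 52.1 CPM in oligodendrocyte lineage replicates 1, 2 and 3 and 11.4, 5.77 and 2.15 CPM in neurons. The sum of the set was 443 ± 176 CPM for Schwann cells, 43.6 ± 13.1 CPM for neurons and 37.1 ± 26.2 CPM for the oligodendrocyte lineage (SD, n = 3 each). Neuron and oligodendrocyte lineage libraries overlapped, and Schwann cell libraries lay above both. A further set held a member with no counts in the oligodendrocyte lineage, of 6555 bases, whose partners were at 9.95, 0.721 and 29.4 CPM there and at 169 to 299 CPM in neurons. Its sum had means of 652 CPM for Schwann cells, 294 CPM for neurons and 13.4 CPM for the oligodendrocyte lineage. With the reads of these sets added, 12 of the 17 members for which a set was found still met the rule. For the 23 members without a set and the 2 with too few fractions no reads could be added.

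**Figure D4:**
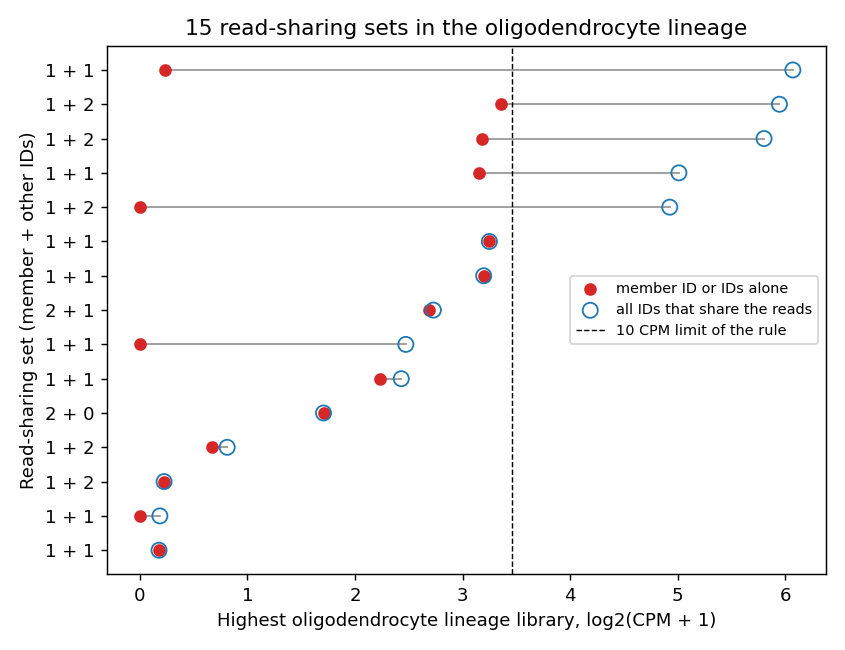
Highest of the 3 oligodendrocyte lineage libraries for the member IDs alone (red) and for all IDs that share their reads (blue circles), as log2(CPM + 1), in the 15 read-sharing sets. In 5 sets the sum passes the 10 CPM limit (dashed line), and in 10 it stays under it.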

How the data were processed

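The files deposited by the authors list, per the file headers, a transcript ID, its length and effective length in bases, and an estimated count that need not be whole, for 9 libraries (3 per population). Per the labels' protocols, RNA was amplified with a SMART-Seq v4 kit; PCR copies without molecular identifiers make counting floors cover counting error only. Tools named in the submitters' processing notes, without roles, were Bowtie2 2.1.0 and RSEM 1.2.15 beside Trimmomatic and FastQC, with the build danRer10. The program that wrote the counts is not given in the sources used here.

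CPM on file sums and TPM from effective lengths were computed. Rounded estimated counts were tested in R 4.3.3 with edgeR 4.0.16 (filterByExpr, TMM, group as the only term, all 9 libraries). The filter kept 23408 transcripts, all 48 members among them, and left out 28808. Standard errors are implied by the fold change and its F statistic, and the common biological coefficient of variation was 1.58. DESeq2 1.42.0 and limma 3.58.1 (pseudocount of 1) were alternatives, and the fitting code was tested on simulated data. The pass limit of that test was set only for a spread narrower than that of these data. IDs were taken to share reads when their counts were fractional by over 0.001 in at least 3 libraries and added up to whole numbers in all 9, within 1e-06 for pairs and 1e-05 for sets of 3. Whole means within 1e-06.

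The members, tests and alternatives were chosen with earlier results of these data known. Named members were the 2 highest in rank, the 2 with the lowest p per direction of Schwann cells against neurons among those without overlap (1 existed for neurons), and the 2 with the highest mean CPM over the 6 high libraries.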

Additional observations from a re-analysis of the deposited data

How the results depend on the processing

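The median log2 fold change of the members for Schwann cells against neurons stayed above 0 under all 17 alternatives, from 0.34 to 0.89 without single libraries. That of the shared transcripts also stayed above 0 throughout, so the sign is not particular to the members. Without Schwann cells replicate 2 the members, at 0.34, were below the shared transcripts, at 0.38. The count of members called in that comparison, 0 in edgeR, was 2 with DESeq2 and 1 with limma on log2(TPM + 1). These tools called 624 and 281 of all tested transcripts higher in Schwann cells, and 107 and 93 of the 1805 shared transcripts. The count was 0 without any one library. There edgeR gave 1 to 5 members an unadjusted p under 0.05, all higher in Schwann cells, against 99 to 196 of the shared transcripts in that direction. DESeq2 gave no p for 1 member. Calls of Schwann cells against the oligodendrocyte lineage, 27 of 48, were 46 with DESeq2, 41 with limma, 5 of 6 with only whole-number transcripts, 0 when only both groups were fitted (43 at an unadjusted edgeR p under 0.05) and 0 to 28 without single libraries. Calls of neurons against the oligodendrocyte lineage, 4, were 43 with DESeq2, 40 with limma, 19 without a filter, 19 when only both groups were fitted and 0 to 9 without single libraries. With the replicate number as a block these counts were 0 for Schwann cells against neurons, 1 and 0. Over all tested transcripts that fit called 0, 1 and 0 as higher. At an unadjusted edgeR p under 0.05 the block gave 2, 45 and 45 members, where 2846, 2340 and 2116 of all tested transcripts passed in either direction. The rule used both contrasts with the oligodendrocyte lineage, so nothing is read from the members' counts in them, adjusted or not. The cause of the differences between settings was not tested. Over all tested transcripts, calls higher in Schwann cells than in the oligodendrocyte lineage were 53 in edgeR, 1282 with DESeq2, 298 with limma and 16 of 4571 with only whole-number transcripts. They were 0 to 61 without single libraries and 2 of 17082 when only both groups were fitted. In that last fit 1436 had an unadjusted edgeR p under 0.05 in either direction. Calls higher in neurons were 12, 1587 and 1022 with these tools. They were 48 of 38323 without a filter, 217 of 21324 when only both groups were fitted and 0 to 37 without single libraries. Between samples with the same number, deviations from the group means had correlations from -0.0352 to 0.0290. Given the wide spread between libraries, such values cannot show whether those samples shared a batch. The rule was met by 16 transcripts with a lower limit of 40 CPM, 23 with an upper limit of 1 CPM and 54 to 112 without single libraries, where fewer libraries had to pass. Only 6 had whole-number counts, and 12 of the 17 members with a read-sharing set still met it with the full counts of the other IDs added. Both settings were chosen after seeing the data. With TMM-scaled CPM, 49 met it, 45 of them members. Depth limits the lowest levels: 3 counts correspond to 0.197 to 0.253 CPM in a single oligodendrocyte lineage library.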

Other observations

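Over the whole table, 1500 pairs of IDs had estimated counts that were fractional alone and whole in sum in all 9 libraries, and none of their 3000 IDs fell in more than 1 pair. In 8 of these pairs the sum met the limits of 20 and 10 CPM. A pair without a member, ENSDART00000136623.2 (1721 bases) and ENSDART00000110478.2 (2969 bases), was among them and is named after its values were seen. Its sum was 57.3, 69.8 and 63.9 CPM for Schwann cells, 25.5, 33.0 and 20.8 CPM for neurons, and 0, 0.328 and 0.0842 CPM for the oligodendrocyte lineage. The first ID alone missed the rule because its level in neurons replicate 3 was 19.4 CPM.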
